A study of Homo sapiens with 1 sample.

Results

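The family of miR-130, miR-301 and miR-454 was described by locus, arm and probe on 1 microRNA (miRNA) array. The RNA came from DLD-1, a cell line grown from a human colorectal carcinoma. Its members were taken by name alone, as the human miRNA spots for miR-130a, miR-130b, miR-301a, miR-301b and miR-454 with either arm. The rule found 10 mature miRNAs, which are the 5p and the 3p arm of 5 hairpins, among the 2549 human miRNAs of the array. They were read by 28 of 5893 probes and by 200 of 50980 miRNA spots. Before RNA extraction the cells had received an siRNA without a target, labelled si-NC, and 1 array was read for this group. Its counterpart in the study was knockdown of the circular RNA circLONP2, and the question was which miRNAs then differ, but the knockdown array was not analysed here. There was thus no comparison between groups and no p-value, and each error below is technical, either the spread of replicate spots or the error that the scanner software attached to a signal.

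A miRNA is cut from a hairpin precursor, and one strand of the resulting duplex is loaded into an Argonaute protein to guide it to messenger RNAs. Pairing of the seed, bases 2 to 8 counted from the 5′ end, largely sets which messenger RNAs are recognised, so that miRNAs with a shared seed have overlapping targets. In this family the shared seed lies on the 3p arm. The family is known for targeting members of the TGF-β pathway, and its members have been studied as growth-promoting miRNAs in several carcinomas.

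Sequences were taken from RefSeq (GRCh38.p14), in which 8 of the 10 arms were matched by name. The 3p arms are shown first, because they carry the seed that defines the family, with the seed in capitals.
miR-130b-3p: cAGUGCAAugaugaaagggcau
miR-301a-3p: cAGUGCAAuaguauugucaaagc
miR-301b-3p: cAGUGCAAugauauugucaaagc
miR-454-3p: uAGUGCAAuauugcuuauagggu
All 4 held the same 7 bases at positions 2 to 8. Counted from 1 at the 5′ end, miR-301a-3p and miR-301b-3p were both 23 bases long and differed by A10G and G11A, with the miR-301a-3p base given first. They shared their first 9 and their last 12 bases. The miR-301b-3p sequence shared its first 12 bases with miR-130b-3p, the other miRNA of its own locus, and no base at the 3′ end. The first base of miR-454-3p was not that of the other 3, and it differed from miR-301a-3p at 10 of 23 positions.

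The 5p arms, with the same positions in capitals, each had a different seed. The seeds of miR-130a-5p and miR-130b-5p differed at position 8 alone.
miR-130a-5p: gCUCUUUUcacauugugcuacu
miR-130b-5p: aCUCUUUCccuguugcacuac
miR-301a-5p: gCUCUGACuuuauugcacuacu
miR-454-5p: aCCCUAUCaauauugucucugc
The reverse complement of the 3p seed (UUGCACU) was found at positions 13 to 19 in miR-130b-5p and in miR-301a-5p. It was in 2 of these 4 arms, and in 8 of the 2248 array miRNAs with a RefSeq sequence (0.356%). The arms of a hairpin pair with each other in the duplex, so these shares are a description and no test of enrichment. A match on the read strand alone was counted.

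The hairpins are shown to place the arms, with each mature arm in capitals and the 5p arm first. They are the 3 hairpins for which both arms were matched.
MIR130B: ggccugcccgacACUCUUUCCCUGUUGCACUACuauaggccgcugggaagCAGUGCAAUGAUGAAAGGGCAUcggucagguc
MIR301A: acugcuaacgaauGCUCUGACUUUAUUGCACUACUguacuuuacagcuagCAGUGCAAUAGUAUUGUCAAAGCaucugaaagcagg
MIR454: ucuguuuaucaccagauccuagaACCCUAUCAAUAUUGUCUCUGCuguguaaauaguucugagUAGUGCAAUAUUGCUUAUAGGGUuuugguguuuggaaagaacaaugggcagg
MIR130B lies at chr22:21653304-21653385 on the plus strand, MIR301A at chr17:59151136-59151221 and MIR454 at chr17:59137758-59137872, both on the minus strand. Between the arms lay 17 bases in MIR130B, 15 in MIR301A and 18 in MIR454.

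The 5 hairpins come from 3 loci. On chromosome 22, 268 bases separated miR-301b-3p (chr22:21653025-21653047) from miR-130b-5p, and RefSeq placed both hairpins within LOC107985532, a transcribed pseudogene. On chromosome 17, 13263 bases separated MIR454 from MIR301A, and the span of SKA2, a gene for a spindle and kinetochore protein, held both. The fifth hairpin, MIR130A, was within the span of the long non-coding RNA gene MIR130AHG on chromosome 11, where miR-130a-5p lies at chr11:57641212-57641233 on the plus strand. Spans of genes were read, and not their exons. Apart from MIR130B and MIR301B themselves, no miRNA gene was within 10 kb of a member.

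On the array as a whole, the scanner software called 1133 of 2549 miRNAs detected (44.4%), 1000 negative control spots had a 99th percentile of 16.1 in background-subtracted signal, and 10 of 10 epithelial and colon marker miRNAs were detected. Of 17 markers of other tissues 5 were detected, namely 3 of 5 for blood, 1 of 5 for stroma and endothelium, 0 of 4 for muscle and 1 of 3 for liver and neural tissue. By total gene signal, described below, the detected blood markers ran from 21.5 to 695, miR-126-3p was at 122.7 and miR-9-5p at 22.1. The epithelial and colon markers ran from 52.2 to 9249, so the ranges overlapped. Of the member spots 74.5% were well above background, against 34.3% of all miRNA spots. No member spot was saturated.

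The first question was which arms gave a signal in the control cells. The software called 9 of the 10 arms detected, where the share over all miRNAs was the 44.4% given above. All 5 of the 3p arms were detected, against 43.8% of the 875 miRNAs of the array with a 3p suffix, and 4 of the 5p arms, against 49.1% of 860. The arm called undetected was miR-130a-5p.

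Total gene signal is the sum that the software takes over those probes of a miRNA whose signal is past 3 times its error. It was highest for miR-301a-3p, at 1027 ± 73.6 (error from the scanner software), followed by miR-130b-3p at 752 ± 53.4. Lower signals were given by miR-454-3p at 179 ± 15.2 and miR-301b-3p at 117 ± 6.87. The lowest of the 3p arms was miR-130a-3p at 23.5 ± 2.10. The shared seed was thus found on arms of very unequal signal, from miR-301b-3p at 117 to miR-301a-3p at 1027 among those with a sequence.

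Of the 5p arms, miR-301a-5p had a total gene signal of 17.4 ± 1.44 and miR-454-5p one of 15.5 ± 0.957. Those of miR-130b-5p and miR-301b-5p were 2.97 ± 0.404 and 1.95 ± 0.524. For miR-130a-5p the software gives a placeholder of 0.1, which is no measurement. In total gene signal both 5p arms from the SKA2 locus were therefore above both from chromosome 22. This did not hold for every pair of probes. The dimmest miR-454-5p probe had a mean spot signal of 17.1, below the brightest miR-130b-5p probe at 21.2.

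**Figure D1:**
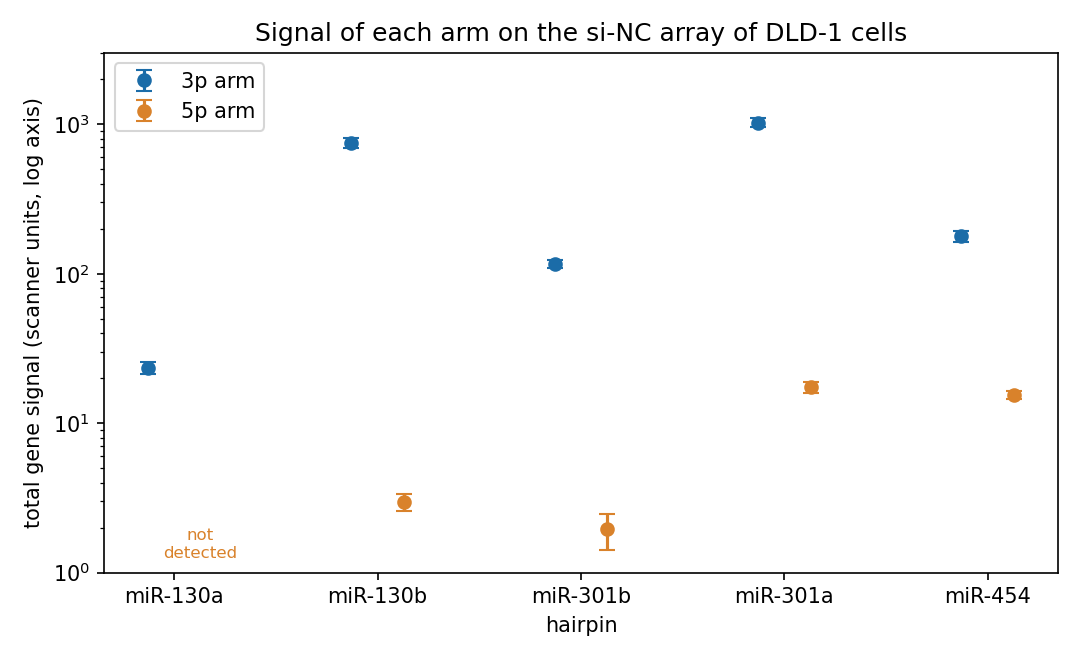
Total gene signal (scanner units, log axis) of both arms of each of the 5 hairpins on the si-NC array, with bars for the error given by the scanner software. The 3p arms lie between 23.5 and 1027 and the detected 5p arms between 1.95 and 17.4. No point is drawn for miR-130a-5p, which was not detected.

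Signals of different probes depend on how each probe binds as well as on the amount of RNA, so the order below is one of signal and not of abundance. All 10 arms had 20 spots, and a total probe signal was 0.0183 times the mean spot signal times the number of spots, for member probes with a mean over 20. The 7 arms with every probe past 3 times its error were thus on a common scale per spot. The totals of miR-130b-5p and miR-301b-5p each rested on probes with 10 of the 20 spots and are not on that scale. Neighbours less than 2 combined errors apart were taken as not resolved. The errors of the software do not take in how far the probes of an arm differ from each other. Going down the order, miR-301a-3p lay above miR-130b-3p by 3.03 times their combined error, miR-130b-3p above miR-454-3p by 10.3 times and miR-454-3p above miR-301b-3p by 3.76 times. The step from miR-301b-3p to miR-130a-3p was 93.4 units, with a combined error of 7.19. From miR-130a-3p to miR-301a-5p the step was 2.41 combined errors in total gene signal. By mean log2 spot signal, relative to a reference described below, these arms were at -1.54 and -1.63 (SD of spots 0.19 and 0.14). With outlier spots kept, both were at -1.53. The dimmer miR-130a-3p probe, with a mean of 23.1, lay below both miR-301a-5p probes, at 36.1 and 59.0. The brighter one, at 105.6, lay above both. So this step was not resolved by mean log2 spot signal, and its direction differed between probes. The next arms, miR-301a-5p and miR-454-5p, differed by 1.12 combined errors and were not resolved. Below them, miR-454-5p stood 12.5 units over miR-130b-5p, with a combined error of 1.04, while miR-130b-5p and miR-301b-5p, 1.55 apart, were not resolved either. The order of the 3p arms was the same in all 5 alternative settings of background, scaling, outlier spots and probes that were run.

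Both arms of a hairpin were set side by side next. In the 4 hairpins with both arms detected, the 3p arm had the higher signal in 4. Over the 232 hairpins of the array with both arms detected, the 3p arm had the higher signal in 46.1%. The 3p arm had a signal of at least 100 in those same 4 hairpins, and its 5p arm was detected in 4 of 4, where the share over the array was 82.5% of 57 hairpins. The median signal of the detected 5p arms beside such a 3p arm was 41.8 over the array, above each of the 4 member 5p arms. The exception to these pairs was miR-130a, whose 3p arm at 23.5 ± 2.10 was the dimmest of the 3p arms and whose 5p arm was not detected.

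Among the 1133 detected miRNAs, miR-301a-3p was at rank 61 by total gene signal and miR-130b-3p at rank 70. The ranks of miR-454-3p and miR-130a-3p were 148 and 423, and miR-301b-3p lay between them at percentile 83.1. The 5p arms were at rank 497 for miR-301a-5p, 528 for miR-454-5p, 984 for miR-130b-5p and 1048 for miR-301b-5p. The median percentile of the 9 detected arms was 62.8, which is that of miR-130a-3p. For orientation, the median total gene signal of all detected miRNAs was 12.5, below 7 of the 9 arms.

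**Figure D2:**
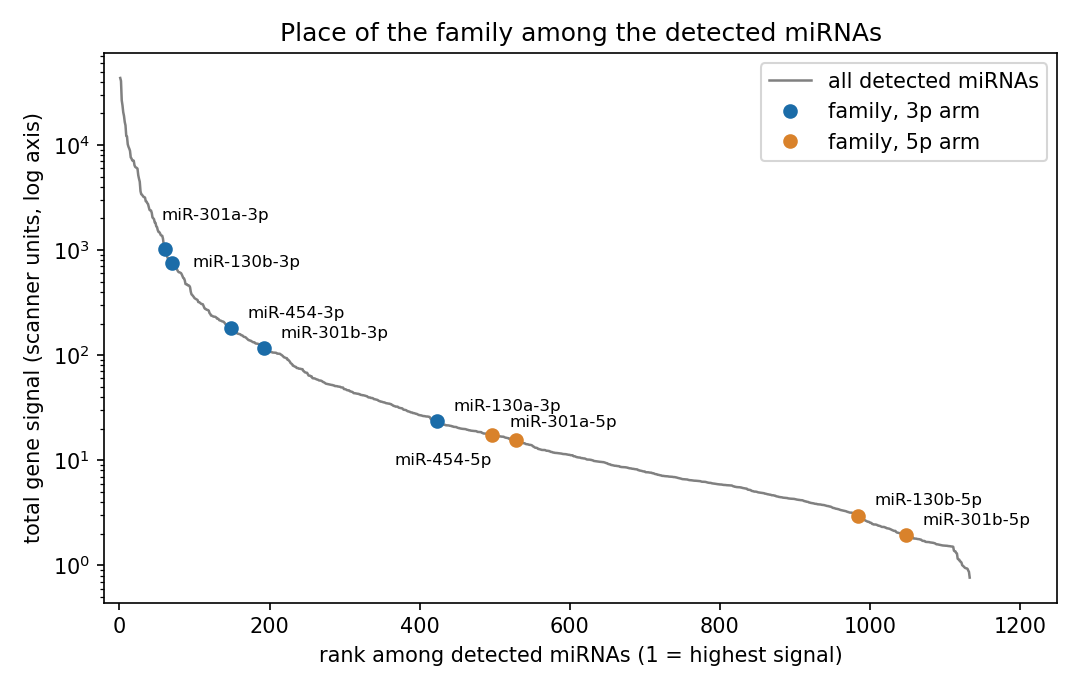
Total gene signal (scanner units, log axis) against rank for the 1133 detected miRNAs of the si-NC array (grey line), with the 9 detected arms of the family as points. The 3p arms hold ranks 61 to 423 and the 5p arms ranks 497 to 1048.

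The replicate spots of each probe were then read one probe at a time, with 10 spots a probe for arms with 2 probes and 5 spots a probe for arms with 4. Spot signals are background-subtracted intensities, and spots that the software marked as outliers were left out. A probe is called bright here where no fewer than 50% of its spots lay well above background. For miR-301a-3p, probe A_25_P00010839 ran from 3058 over a median of 3287 to 3450, and probe A_25_P00013973 from 2241 over 2364 to 2441. For miR-130b-3p, probe A_25_P00010437 ran from 2083 over 2227 to 2306 and probe A_25_P00010438 from 1747 over 1907 to 1959. These 4 probes were the brightest of the family, and the ranges of A_25_P00013973 and A_25_P00010437 overlapped between the 2 arms.

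For miR-454-3p, the spots of probe A_25_P00012871 ran from 779 over a median of 813 to 848. Those of its probe A_25_P00012870 ran from 169 over 172 to 176 in 7 spots, with 3 outlier spots left out. The ranges of these probes did not overlap, and their means differed by 2.24 ± 0.02 on the log2 scale (SE from replicate spots), which is 4.71-fold.

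Probes for miR-301b-3p differed most. The mean spot signal was 34.3 ± 4.31 (SD, 5 spots) for probe A_25_P00013024, 287 ± 3.90 (SD, 4 spots) for A_25_P00013025, 379 ± 15.6 (SD, 5 spots) for A_25_P00013026 and 579 ± 10.7 (SD, 5 spots) for A_25_P00013027. No pair of these ranges overlapped, and the brightest and dimmest probe differed by 4.08 ± 0.08 (log2), or 16.9-fold. That was the 8th largest difference among the 57 detected miRNAs with 4 bright probes. All 5 spots of the dimmest probe were above the limit of 16.1 set by the negative controls. Since 3 of the 4 probes were brighter than the dimmer miR-454-3p probe and all 4 dimmer than the brighter one, the order of these arms was not the same for each pair of probes.

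For miR-130a-3p, probe A_25_P00010439 ran from 79.4 over a median of 104 to 126.2 and probe A_25_P00010440 from 18.5 over 23.6 to 26.8. The difference was 2.19 ± 0.08 (log2), and all 20 spots were well above background and over the limit of 16.1. Both probes were thus above background, and the dimmer was close to it.

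The probes of the 5p arms were read next. For miR-301a-5p, probe A_25_P00017444 ran from 53.9 over a median of 59.1 to 64.4 and probe A_25_P00017443 from 29.9 over 37.5 to 40.7 in 9 spots. For miR-454-5p, the 4 probe means were 55.1 ± 4.96, 57.1 ± 3.61, 17.1 ± 3.23 and 39.8 ± 1.996 (SD, 5 spots each), in the order of their probe numbers, and 19 of 20 spots were well above background. Every probe of these arms was bright.

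For miR-130b-5p, the means were 1.54 ± 1.52, 3.03 ± 1.11, 11.3 ± 2.51 and 21.2 ± 2.76 (SD, 5 spots each). The total gene signal of 2.97 rested on the last 2 probes, the ones past 3 times their error, and 6 of 20 spots were well above background. For miR-301b-5p, probe A_25_P00019140 had a mean of 10.6 ± 5.35 (SD, 9 spots) and was past 3 times its error, at 3.71 times, whereas probe A_25_P00019139 at 5.87 ± 1.73 (SD, 9 spots) was not, at 2.19 times. Its 4 spots well above background all belonged to the former probe, and the brightest of them, at 30.04, was an outlier spot left out of that mean. Detection of these arms thus rested on some of their probes.

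For miR-130a-5p, 0 of 20 spots were well above background, and the spots ran from -1.35 over a median of 2.71 to 7.004. All 4 of its probe means were between 2.83 and 3.42, above the median of -0.695 and below the 99th percentile of 7.47 over the 3274 probes of undetected miRNAs. A signal of miR-130a-5p was not detectable on this array.

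**Figure D3:**
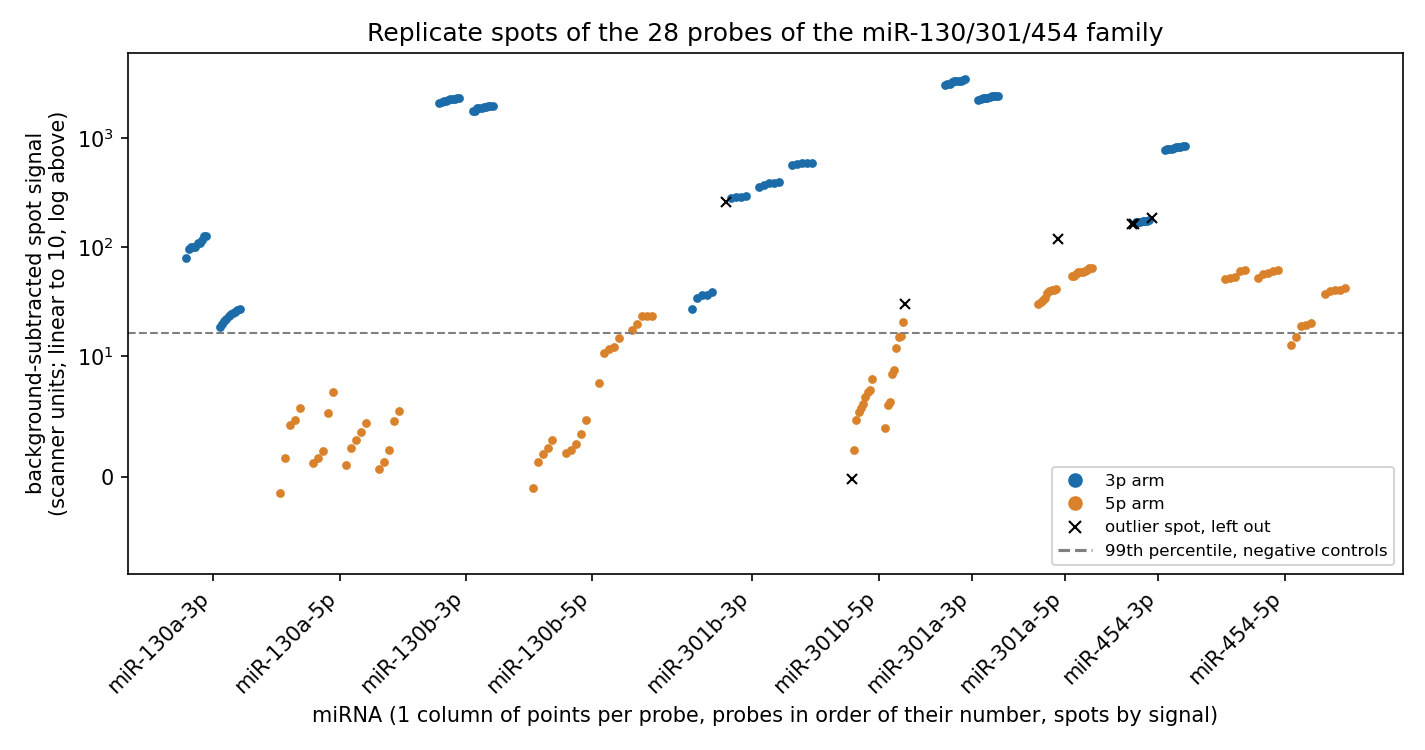
Background-subtracted signal of all 200 spots of the 28 member probes (scanner units, linear up to 10 and log above), with 1 column of points per probe, spots sorted by signal, crosses for outlier spots left out and a dashed line at 16.1, the limit from the negative controls. The 4 probes of miR-301b-3p have means from 34.3 to 579, while all spots of miR-130a-5p lie below the line.

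The count of detected arms was lower under stricter rules. It was 8 where 1 probe had to be bright (37.9% of all miRNAs) and 8 where the median spot of 1 probe had to exceed 16.1 (34.8% of all miRNAs). It was 7 where every probe had to be bright (29.4%) and 7 with a total gene signal of at least 5 (33.3%). The arm lost first was miR-301b-5p, and the last 2 rules also lost miR-130b-5p. All 5 of the 3p arms, miR-301a-5p and miR-454-5p were detected under each of these rules.

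Differences between probes of the same arm were compared with those over the array. There were 7 arms with 2 or more bright probes. Their median difference between the brightest and the dimmest probe was 1.74 (log2), and that over all 801 such miRNAs was 0.35. By number of probes, the array medians were 0.32 for the 683 miRNAs with 2 probes and 1.17 for the 57 with 4. Among arms with 2 such probes the difference was 0.24 ± 0.02 for miR-130b-3p, 0.46 ± 0.02 for miR-301a-3p and 0.71 ± 0.06 for miR-301a-5p. The last of these was 0.41 with its 1 outlier spot kept and 0.31 with another background correction (normexp). Those of miR-130a-3p and miR-454-3p, 2.19 and 2.24, were at ranks 28 and 25 of 683. The difference for miR-454-5p was 1.74 ± 0.13, at rank 20 of 57. The difference was below the array median of its class for 1 of the 7 arms, miR-130b-3p.

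**Figure D4:**
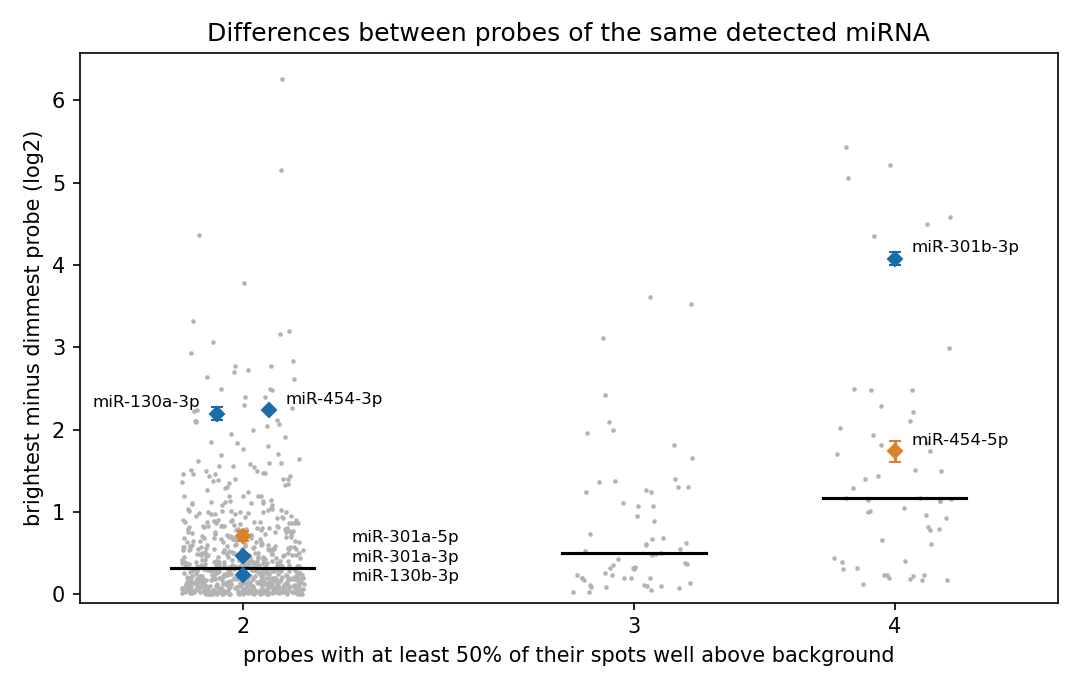
Difference between the brightest and the dimmest probe (log2) for 801 detected miRNAs, by the number of bright probes. Grey points are single miRNAs, black lines the medians of 0.32, 0.51 and 1.17 for 2, 3 and 4 probes, and diamonds with bars the 7 member arms with SE from replicate spots, from 0.24 for miR-130b-3p to 4.08 for miR-301b-3p.

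The spread of replicate spots was small beside these differences. The coefficient of variation (CV) of the 19 bright member probes had a median of 5.01%, from 1.36% to 18.9%, and that of the 1943 bright probes of the array one of 8.74%. The 4 member probes with a mean of 1000 and over, those of miR-301a-3p and miR-130b-3p, had a median CV of 3.56%, where the array had 3.76%. The 6 from 100 to 1000 had a median of 2.36% against 5.68%, and the 8 from 20 to 100 one of 10.4% against 10.2%. The 1 probe under 20 was at 18.9% against 15.8%. Outlier spots were left out for members and array alike. Among the 6, keeping them moved A_25_P00013025 from 1.36% to 4.91% and A_25_P00012870 from 1.37% to 3.60%.

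Among detected arms read by 4 probes of consecutive number, the mean spot signal rose with the probe number in 2 of 2, miR-301b-3p and miR-130b-5p. Over the array this order was found in 72 of 121 such miRNAs (59.5%), and the opposite order in 6. It was noticed in the member values before it was counted over the array, and how the probes were numbered was not tested. For miR-130b-5p only 1 probe was bright. The means of its first 2 probes were 1.54 ± 1.52 and 3.03 ± 1.11 (SD, 5 spots each), and their spot ranges overlapped.

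The seed occurred outside the members taken by name too. On the array, 6 miRNAs with a RefSeq sequence had it, of which 4 are the 3p arms above and 2 are miR-3666 (chr7:114653373-114653393, plus strand) and miR-4295 (chr10:112634180-112634197, plus strand). They are shown for the bases that they share with the 3p arms.
miR-3666: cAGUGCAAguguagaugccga
miR-4295: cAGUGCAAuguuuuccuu
The first 8 bases of miR-3666 and the first 10 of miR-4295 were those of miR-130b-3p and miR-301b-3p. Neither was called detected, and 0 of 20 spots were well above background for each. Spots of miR-3666 ran from 2.75 over a median of 5.35 to 11.1, and those of miR-4295 from -5.10 over -2.21 to 2.42. Over the spots of undetected miRNAs the median was -0.459 and the 99th percentile 9.21, so all miR-3666 spots were above that median and the highest above that percentile. The median of miR-4295 was below that of undetected miRNAs. Whether related miRNAs bind these probes was not tested.

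The family of miR-148 and miR-152, whose seed is that of miR-130b-3p shifted by 1 base, was read in the same way. Total gene signals were 1280 ± 90.6 for miR-148a-3p, 169 ± 12.2 for miR-148b-3p and 73.8 ± 5.60 for miR-152-3p, all 3 detected with 20 of 20 spots well above background.

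The authors' deposited log2 values kept the order of the 3p arms, with 9.84 for miR-301a-3p, 9.48 for miR-130b-3p, 7.53 for miR-454-3p, 6.90 for miR-301b-3p and 4.67 for miR-130a-3p. The differences from the log2 total gene signal went from -0.17 for miR-301a-3p to 0.11 for miR-130a-3p. The deposited values of miR-301a-5p and miR-454-5p were 4.20 and 3.99. The dim arms miR-130b-5p and miR-301b-5p had a single deposited value, 2.3236, so the table holds no order between them, and miR-130a-5p was at the lowest value of the table, 2.3219. A change of these 3 arms to lower signal could not be read from the deposited values.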

How the data were processed

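MiRNA levels were measured in 1 si-NC sample on a single-colour Agilent array. Per the file headers, spots were extracted with Feature Extraction 11.0.1.1 on a design of build hg19. The labels name Cyanine 3-pCp ligation and the study's methods cDNA labelling, and the values do not settle this. The deposited scanner file gives background-subtracted intensity for each spot, totals with errors, and flags for detection and outliers. The authors' deposited table holds log2 values, quantile normalized in GeneSpring.

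From these files, Python 3.11.15, numpy 2.4.6, pandas 2.3.3 and, for normexp (offset 50, median spot signal), R 4.3.3 with limma 3.58.1 were used. Log2 spot signals were expressed relative to a reference, the 75th percentile of the spots whose miRNA was detected. In the main setting outlier spots were left out of this percentile, and likewise of the alternative one over all miRNA spots. Spots without a positive signal have no log2 value and were left out of the log2 spot signals. Probe statistics were tested on simulated data with a CV of 10% and all spots well above background. Dim probes and outlier spots were not covered by that test. With 1 array, its number limits the precision.

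All 10 member arms were described, with every other array miRNA that has their 3p seed, miR-148 and miR-152, genes within 10 kb and marker lists. Members and lists were chosen with earlier results of these data known. Alternatives concerned detection, scaling, background, outlier spots and probes. The probe sequences were not used here. With 1 sample, no likeness of pattern was computed.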

Additional observations from a re-analysis of the deposited data

How the results depend on the processing

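Over 24 results, 100 alternative values were computed, of which 51 stayed within their limit (1.5 times for counts, the error from replicate spots or of the software otherwise) and 49 moved, 38 of them among the 66 values of single arms. The count of 5p arms, 4, fell to 2 under the rules on every probe and on a signal of at least 5. The median log2 signal of the 3p arms relative to the 75th percentile, 1.39, was 3.83 with the percentile over all miRNA spots, because the reference fell from 142.6 to 26.3, and it was 1.15 with normexp, 2.50 with the brightest probe alone and 1.70 with deposited values. The median CV, 5.01%, was 3.31% with normexp and 7.66% with all probes above 0. The median difference between probes, 1.74, was 0.65 with normexp, where an offset of 50 is part of each signal, and that of miR-301b-3p, 4.08, became 2.77. The median percentile, 62.8, was 59.3 with the mean log2 spot signal and 83.4 among all miRNAs, where undetected ones are counted. Apart from the reference and the offset, the cause was not tested. The dim arms miR-130b-5p and miR-301b-5p had errors of 13.6% and 26.9%. By mean log2 spot signal miR-301b-5p was the higher, and with normexp, the brightest probe alone or total gene signal miR-130b-5p was. The mean log2 spot signal of miR-130b-5p left out 1 spot below 0, at -0.907. No paired analysis was possible because there was 1 sample.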

Other observations

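Of the 200 member spots, 7 were outlier spots (3.50%, against 4.51% of all miRNA spots). For probe A_25_P00012870 of miR-454-3p, 3 of 10 spots were left out, at 161, 161 and 182, close to the 169 to 176 of the others, and with them the CV was 3.60% in place of 1.37%. For probe A_25_P00017443 of miR-301a-5p, 1 spot at 118 was left out, far from the 29.9 to 40.7 of the others, and the CV with it was 59.4% in place of 11.8%.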
